A study of Mus musculus with 4 samples.

Results

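The genes of endoplasmic reticulum (ER) stress and secretory protein folding were followed in mouse peritoneal macrophages as a set of 41 genes. They were named by symbol, with no measured value in the rule but with earlier results of these data known, among 16403 genes listed in at least 1 of 4 RNA-seq libraries. They comprised 4 genes of stress sensing, 17 chaperones and disulfide enzymes, 9 genes of ER-associated degradation, 4 genes of the translocon and 7 genes of the ATF4 branch. All 41 were listed in at least 1 library, and 40 had a read in every library and a mean of at least 1 FPKM (fragments mapped to a gene, scaled by its transcript length and by the library total). The exception was Derl3.

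The study asked how loss of Trim24, which the labels call TIF1a, alters the response of macrophages to interleukin-4 (IL-4), the cytokine that drives alternative (M2) activation. All cells came from C57BL/6 mice injected with 4% thioglycolate 4 days earlier, were left to adhere for 4 h and were starved in medium with 0.5% serum. The 4 groups were wild-type untreated, wild-type with IL-4, knockout untreated and knockout with IL-4, where treatment was 20 ng/mL mouse IL-4 for 6 h. The controls are labelled wild-type, with no further allele named, and the cells labelled TIF1a-/- came from mice lacking it in myeloid cells, through a Cre recombinase under the lysozyme M promoter per the study's methods. Each group was 1 library, and the number of mice behind a library is not given in the labels, so no difference had a replicate check. The mice were young adults per the study's methods. Tests between pairs of libraries compared those libraries and not the conditions, and every standard error (SE) and interval covers counting error only.

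Proteins that enter the secretory pathway are threaded into the ER through the translocon, folded there by chaperones and disulfide isomerases, and, when they fail to fold, sent back to the cytosol for degradation. Unfolded proteins activate the sensors IRE1 (gene Ern1), PERK (Eif2ak3) and ATF6. IRE1 splices the Xbp1 transcript, ATF6 and XBP1 raise chaperone and degradation genes, and PERK phosphorylates eIF2α, which favours translation of ATF4 and so the transcription of amino acid, redox and feedback genes, while other kinases can activate ATF4 without ER stress.

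The libraries held 11026033 to 11250099 expected reads, and 3 reads in a library amounted to 0.267 to 0.272 CPM (counts scaled to a common library total). Trim24 had 2.55 FPKM in the wild-type untreated and 1.48 in the wild-type IL-4 library, and 0.06 and 0.14 in the knockout libraries (4 and 10 reads), as the labels call for. Of the M2 genes, Arg1 had 1.84 and 5.40 FPKM in the untreated libraries and 463 and 733 with IL-4, and Chil3 had 7.17 and 11.1 and then 555 and 983. Of the 6 macrophage markers, Cd68 was at 3005 to 3465 FPKM, and Csf1r, the receptor for colony-stimulating factor 1, was called higher with IL-4 in both genotypes (log2 ratios 0.90 and 1.07). Lyz2, the lysozyme M gene, was called lower in the knockout at both treatments (-1.12 and -1.18), and Mertk was called higher in the knockout with IL-4 (0.60). The summed macrophage markers, mostly Lyz2, were at 14833 and 14732 FPKM in wild-type and 8885 and 8282 in knockout libraries, without and with IL-4, and their part in the differences given here was not tested. Of the 9 B and plasma cell markers 3 averaged at least 1 FPKM, namely Cd79a (1.17 to 2.97), Cd79b (1.69 to 2.30) and Sdc1, which set the summed level of 81.7 to 148 FPKM with 75.4 to 143. Of the plasma cell markers among them, Jchain was at 0.07 to 0.13 FPKM and Mzb1 at 0.20 to 0.40. The summed markers of T and NK cells reached 1.05 to 1.62 FPKM, those of neutrophils 5.15 to 8.86 (S100a9, Retnlg and Ly6g at 0), of mast cells 3.63 to 9.12, of eosinophils 1.44 to 2.47 and of mesothelial cells and fibroblasts 19.5 to 38.4. In bulk RNA, fewer cells that make a transcript and less of it per cell cannot be told apart.

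The promoters with known stress motifs are shown first, to be read beside the IL-4 values. RefSeq promoters of the build GRCm38.p6, from 250 bases before to 50 bases after the annotated start, were found for 36 of the 41 genes. They were searched on both strands for 5 motifs. The ER stress element, bound by ATF6 and XBP1 with NF-Y, was taken as CCAAT and CCACG separated by 9 bases. It stood in 10 of the 36 genes, of which 8 were among the 15 chaperone genes with a promoter and 0 among the 7 genes of the ATF4 branch, and in 0.119% of all 32851 promoters. The C/EBP-ATF response element (CARE), which ATF4 binds, was taken as TGATG and AA separated by 1 base. It stood in 3 of the 7 ATF4 branch genes (Asns, Chac1 and Trib3), in Herpud1, and in 3.97% of all promoters. The ER stress element II (ATTGG and CCACG separated by 1 base) stood in Herpud1 and Dnajb11, and in 0.0365% of all promoters. The unfolded protein response element TGACGTGG stood in none of the 36 genes, and in 0.676% of all promoters. A STAT6 site, TTC and GAA separated by 4 bases, stood in Chac1 alone of the 36 and in 6.95% of all promoters, and no site of one motif overlapped a site of another in these genes. Below are 4 chaperone promoters with the ER stress element in capitals, then 2 ATF4 branch promoters with the CARE in capitals, and then Herpud1 with the CARE and the ER stress element II in capitals, each read 5′ to 3′ on the strand of its gene.
Hspa5 (chr2:34772010-34772058, plus strand): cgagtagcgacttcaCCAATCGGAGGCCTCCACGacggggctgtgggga
Calr (chr8:84847060-84847108, minus strand): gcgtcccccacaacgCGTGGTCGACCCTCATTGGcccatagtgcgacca
Canx (chr11:50325785-50325833, minus strand): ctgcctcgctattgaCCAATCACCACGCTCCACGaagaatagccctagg
Pdia6 (chr12:17266476-17266524, plus strand): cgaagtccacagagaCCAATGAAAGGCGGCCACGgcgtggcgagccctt
Asns (chr6:7693210-7693247, minus strand): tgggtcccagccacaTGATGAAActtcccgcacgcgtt
Chac1 (chr2:119351034-119351071, plus strand): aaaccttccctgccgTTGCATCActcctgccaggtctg
Herpud1 (chr8:94386302-94386402, plus strand): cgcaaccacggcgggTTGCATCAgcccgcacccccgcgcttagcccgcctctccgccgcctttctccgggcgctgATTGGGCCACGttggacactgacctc
In Calr and Chac1, and at the CARE of Herpud1, the capitals read as the reverse complement of the motif. A match is a description of letters and not a bound site.

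The folding machinery was abundant in every library, and the means and ranks given here are over all 4 libraries, with and without IL-4. Calr, the calcium-binding lectin chaperone calreticulin, had the highest mean of the set at 581 FPKM, followed by Hsp90b1 (the ER HSP90, 245), Hspa5 (the ER HSP70 BiP, 223) and P4hb (protein disulfide isomerase, 218). Atf4 ranked 5 at 212 FPKM, but in the untreated libraries, at 164 FPKM in wild-type and 158 in knockout cells, it lay below Pdia3 (190 and 182). At the other end stood the sensors Ern1 (12.3 FPKM) and Eif2ak3 (6.26), the stress-induced Sesn2 (7.42) and Chac1 (3.87), and Derl3, a derlin best known from secretory cells. Derl3 had 1 read in the wild-type untreated and 2 in the wild-type IL-4 library and 0 in both knockout libraries, and a count of 0 allows up to 0.272 CPM, so no difference was detectable at this depth. Summed over the set, the level was 2812 FPKM in wild-type untreated, 3424 in wild-type with IL-4, 2699 in knockout untreated and 3243 in knockout with IL-4 cells. The IL-4 libraries were higher in both genotypes, and the genotypes lay close to each other.

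**Figure D1:**
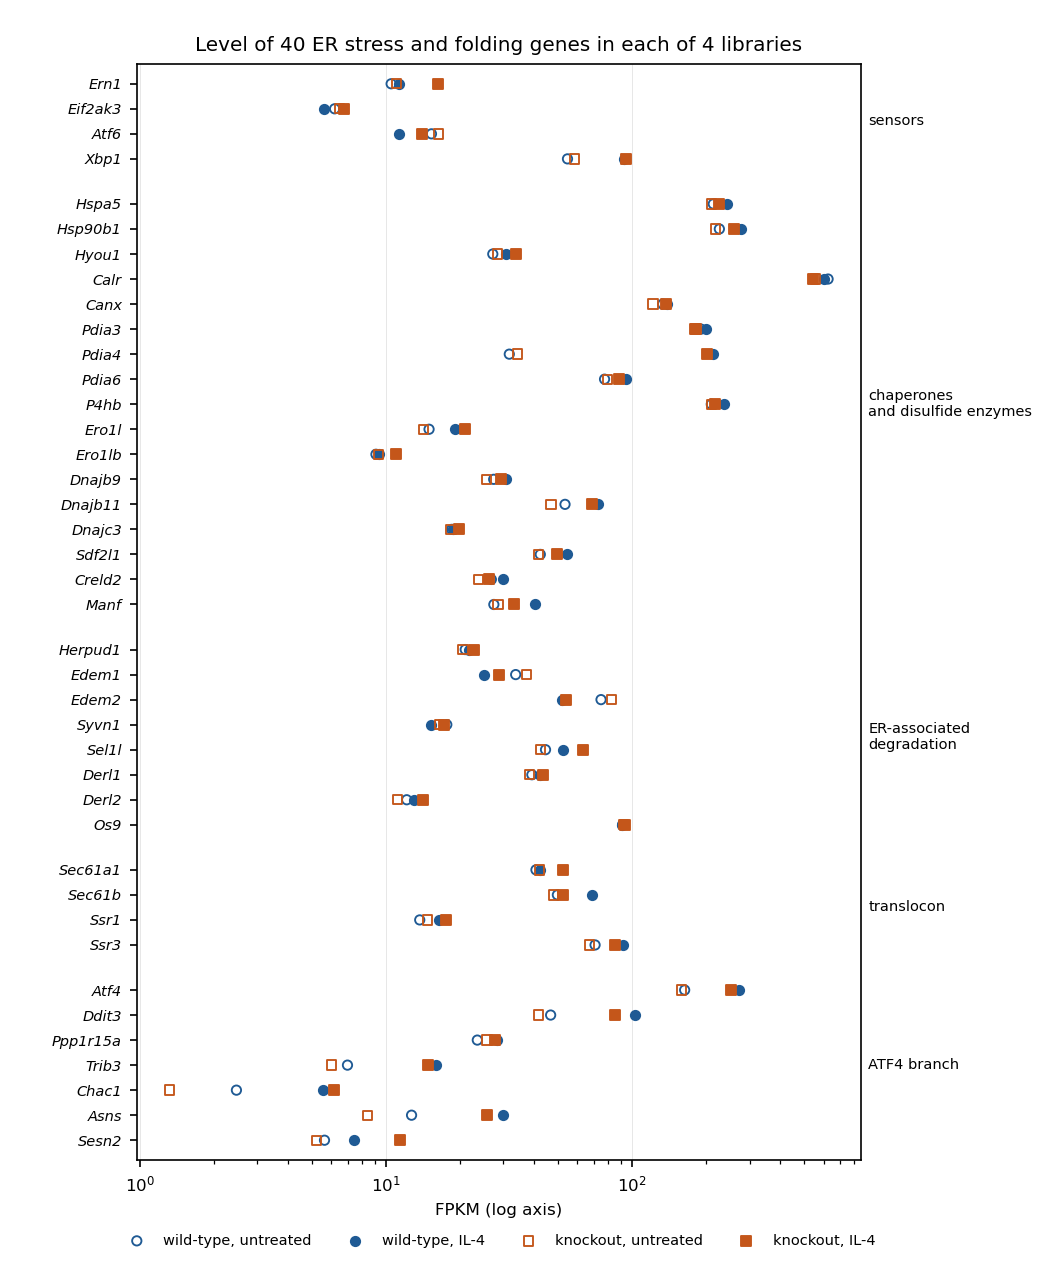
Level of 40 genes in each library, in FPKM on a log axis, by role (Derl3 left out). Circles are wild-type and squares knockout, open without and filled with IL-4, and each symbol is 1 library. Pdia4 and most of the ATF4 branch show filled symbols far to the right of open ones, whereas the chaperones around Hspa5, at 210 to 243 FPKM, lie together.

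The first comparison asked what 6 h of IL-4 did to these genes in each genotype. Pdia4, a disulfide isomerase of the ER, rose most, and with it rose Xbp1, Atf4 and the ATF4 branch genes Ddit3, Trib3, Chac1 and Asns, each in both genotypes. The other chaperones and the degradation and translocon genes, leaving out Derl3, changed by less than 1.5-fold, except Edem2, which was called lower in the knockout pair. A gene was called where Fisher's exact test on reads, adjusted by Benjamini-Hochberg over all genes with a read in the pair, gave an adjusted p under 0.05 and the fold exceeded 1.5 on the log2(FPKM + 0.1) scale, the scale of all log2 ratios given. In the wild-type pair 7 of 41 genes were called higher, against 4.91% of all 15593 genes tested, and 0 lower, against 7.88%. In the knockout pair 8 of 40 were called higher (5.29% of all 15738 genes) and 1 lower (4.03%). The 7 of the wild-type pair were all among the 8, and for both pairs together the background was 3.56% higher and 2.91% lower. A further 22 genes of the set in the wild-type pair and 19 in the knockout pair had an adjusted p under 0.05 with a change under 1.5-fold. The share over all genes was not computed for these counts, so they are not read as a trait of the set. Over the 40 genes averaging 1 FPKM or more, the median log2 ratio stood at 0.18 in the wild-type pair and 0.22 in the knockout pair, beside -0.01 and 0.01 over all genes. The sign was the same in both pairs for 36 of 40, and for 7826 of 10511 genes in all (74.5%).

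**Figure D2:**
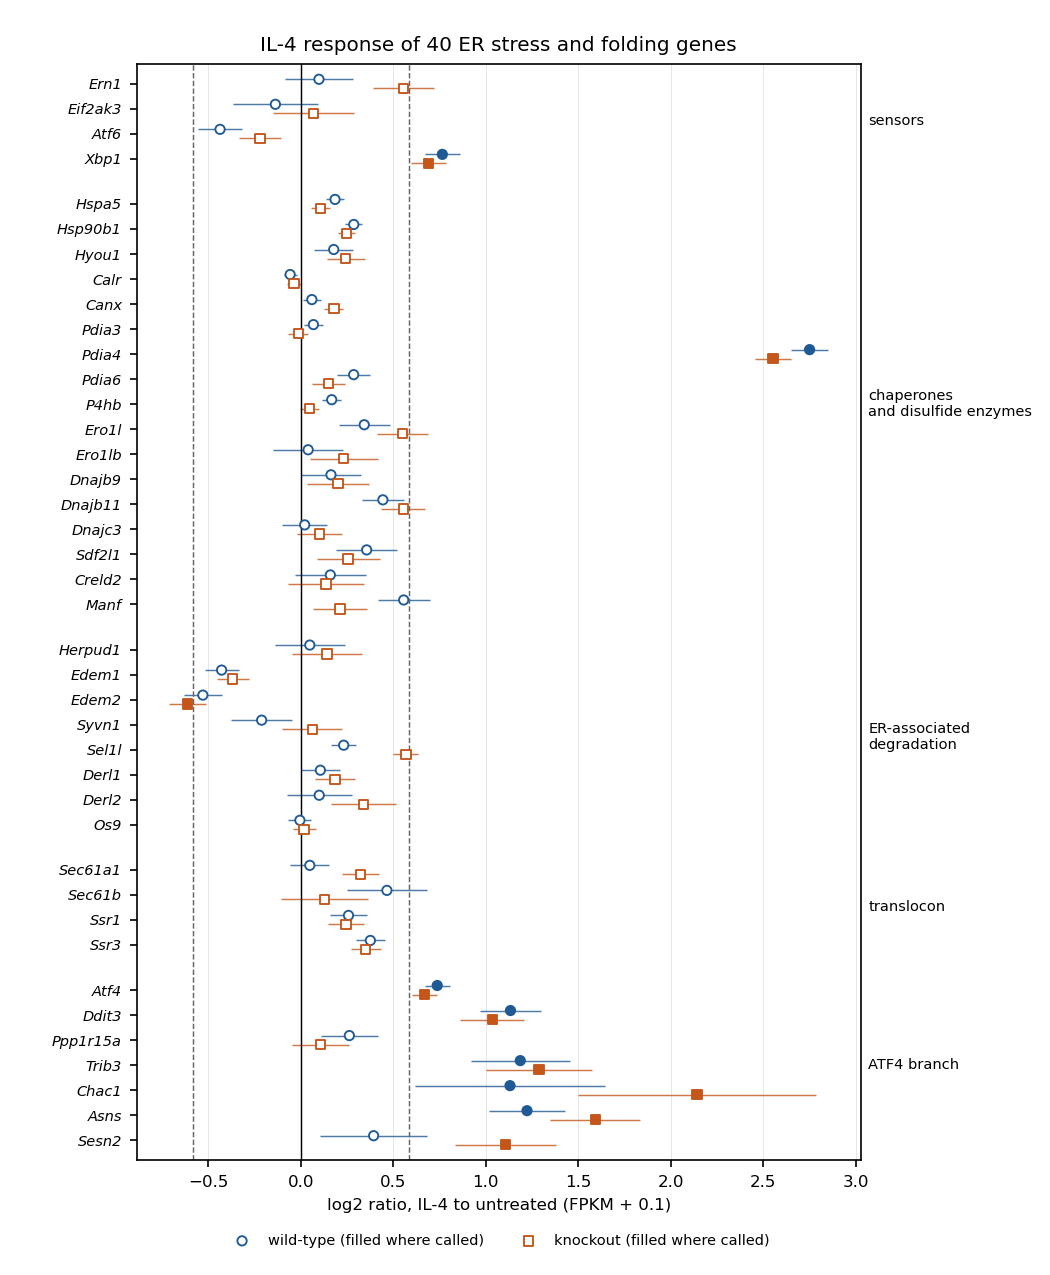
IL-4 to untreated log2 ratio of 40 genes in wild-type (circles) and knockout (squares) cells, with 95% intervals for counting error, 1 library per group. Filled symbols were called and dashed lines mark 1.5-fold. Pdia4 stands alone at 2.75 and 2.55, 5 of 7 ATF4 branch genes are filled in both genotypes, and most chaperones lie between 0 and the right dashed line.

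Of the sensor genes, Xbp1, whose product is the transcription factor made active by IRE1 splicing, was at 54.7 FPKM in wild-type untreated and 58.3 in knockout untreated cells, and at 93.0 and 94.3 with IL-4. Both IL-4 libraries lay well above both untreated ones, 1.70-fold in the wild-type (log2 ratio 0.77 ± 0.05 SE) and 1.62-fold in the knockout pair (0.69 ± 0.05). Gene-level values do not separate spliced from unspliced Xbp1. Ern1, encoding the splicing enzyme itself, was at 10.50, 11.25 and 11.03 FPKM in the wild-type untreated, wild-type IL-4 and knockout untreated libraries and at 16.3 in the knockout with IL-4. It thus stood apart in 1 library alone, with log2 ratios to IL-4 of 0.10 ± 0.09 and 0.56 ± 0.08, neither past 1.5-fold. Eif2ak3, the kinase PERK, ranged from 5.62 to 6.78 FPKM. Atf6, the membrane-bound transcription factor, was at 15.3 FPKM in wild-type and 16.3 in knockout untreated cells and at 11.3 and 14.0 with IL-4. Its log2 ratios were -0.44 ± 0.06 and -0.22 ± 0.06, and its transcript is long (7463 bases). The IL-4 ratio moved with transcript length over all genes, and at that length the trend was -0.40 in the wild-type pair and -0.10 in the knockout pair. With the trend removed, the ratios of Atf6 were -0.04 and -0.12.

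Pdia4 (chr6:47796141-47813512) was at 31.7 FPKM in wild-type and 34.3 in knockout untreated cells and at 214 and 202 with IL-4. The reads behind these values were 917, 991, 6314 and 5827. The rise was 6.73-fold in the wild-type (log2 ratio 2.75 ± 0.05) and 5.87-fold in the knockout pair (2.55 ± 0.05). Per length, Pdia4 thereby moved among the isomerases from below Pdia6 (77.3 FPKM in wild-type and 79.5 in knockout untreated cells) to beside P4hb (236 and 217 with IL-4) and Pdia3 (200 and 180). Pdia3, the isomerase that works with calreticulin, had log2 ratios of 0.07 and -0.01, P4hb 0.17 and 0.05, and Pdia6 0.29 and 0.15, none of them called. The other 16 genes of the group lay between -0.06 (Calr) and 0.56 (Manf) in the wild-type pair and between -0.04 (Calr) and 0.55 (Dnajb11) in the knockout pair, with 0 called in either. The promoter of Pdia4 held none of the 5 motifs.

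BiP, whose gene Hspa5 is the usual marker of ER stress, changed by less than 1.2-fold. Hspa5 was at 214 and 210 FPKM untreated and at 243 and 226 with IL-4, with log2 ratios of 0.19 ± 0.03 in the wild-type pair and 0.11 ± 0.03 in the knockout pair. Hsp90b1 was at 226 and 218 FPKM untreated and 276 and 258 with IL-4 (0.29 ± 0.02 and 0.25 ± 0.02). Both had IL-4 libraries above the untreated ones in both genotypes, though by far less than 1.5-fold. The nucleotide exchange factor Hyou1 had log2 ratios of 0.18 and 0.24, the membrane lectin Canx 0.06 and 0.18, and Calr -0.06 and -0.04. Among the ER DnaJ co-chaperones, Dnajb11 was at 53.4 and 46.8 FPKM untreated and 72.7 and 68.8 with IL-4 (0.44 ± 0.06 and 0.55 ± 0.06), near but under 1.5-fold in both. The co-chaperones Dnajb9 (0.16 and 0.20) and Dnajc3 (0.02 and 0.10), and Sdf2l1 (0.36 and 0.26), which assists BiP, moved less. The oxidase Ero1l, which recharges the isomerases, was at 14.97 and 14.22 FPKM untreated and 19.02 and 20.89 with IL-4 (0.34 ± 0.07 and 0.55 ± 0.07), and its paralog Ero1lb had 0.04 and 0.23. The secreted stress proteins Manf and Creld2 had log2 ratios of 0.56 ± 0.07 and 0.21 ± 0.07, and of 0.16 and 0.14. Manf was at 27.4 FPKM untreated and 40.4 with IL-4 in wild-type cells and at 28.6 and 33.1 in the knockout, so that it moved more in the wild-type pair.

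ER-associated degradation held the 1 gene of the set that the pair tests called lower with IL-4. This call, 1 of 40 in the knockout pair beside 4.03% of all genes, is near the background. Edem2, a mannosidase-like protein that marks glycoproteins for disposal, was at 74.8 FPKM in wild-type and 82.4 in knockout untreated cells and at 51.8 and 53.9 with IL-4. The decline was 1.44-fold in the wild-type (log2 ratio -0.53 ± 0.05) and 1.53-fold in the knockout pair (-0.61 ± 0.05), and only the latter was called. Its relative Edem1 was at 33.7 and 37.3 FPKM untreated and 25 and 28.9 with IL-4 (-0.43 ± 0.05 and -0.37 ± 0.04), uncalled. With the length trend removed Edem2 had -0.58 and -0.64 and Edem1 -0.14 and -0.31. Sel1l, the scaffold of the HRD1 ligase, went the other way, from 44.5 to 52.3 FPKM in wild-type cells and from 42.4 to 62.9 in knockout cells (0.23 ± 0.03 and 0.57 ± 0.03). With the length trend removed its ratios were 0.55 and 0.64, and the knockout value was then called. The ligase itself, Syvn1, had log2 ratios of -0.21 and 0.06, the stress-induced membrane protein Herpud1 0.05 and 0.14, the lectin Os9 0.00 and 0.02, and the derlins Derl1 and Derl2 0.11 and 0.19, and 0.10 and 0.34. The median of the 8 detected degradation genes was 0.02 in the wild-type pair and 0.10 in the knockout pair.

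All 4 translocon genes lay above 0 in both pairs, and none was called. Ssr3, a subunit of the translocon-associated TRAP complex, was at 70.7 and 67.1 FPKM untreated and 91.9 and 85.6 with IL-4 (log2 ratios 0.38 ± 0.04 and 0.35 ± 0.04), and Ssr1 of the same complex had 0.26 ± 0.05 and 0.25 ± 0.05. Ssr1 has the longest transcript of the set (9306 bases), and with the length trend removed its ratios were 0.76, which was then called, and 0.38. Of the channel subunits, Sec61a1 had 0.05 and 0.32 and Sec61b 0.47 and 0.13, so each moved more in a different genotype. Expected counts of Ssr1 were not whole in any of the 4 libraries, which means that some of its reads also matched other genes, and the same held for Dnajb11 in 3, Dnajb9 in 2 and Sdf2l1 in 1.

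Most of the ATF4 branch rose. The summed level of its 7 genes went from 261 to 462 FPKM in wild-type cells and from 247 to 424 in knockout cells. Its median log2 ratio was 1.13 and 1.11, and 5 of 7 genes were called higher in the wild-type pair and 6 of 7 in the knockout pair, beside 4.91% and 5.29% of all genes tested. Atf4 (chr15:80255184-80257545), the transcription factor of the branch, was at 164 and 158 FPKM untreated and 273 and 252 with IL-4. Both IL-4 libraries were higher, 1.67-fold in the wild-type (0.74 ± 0.03) and 1.59-fold in the knockout pair (0.67 ± 0.04). Ddit3 (chr10:127290793-127296291), encoding the stress factor CHOP, was at 46.7 and 41.7 FPKM untreated and 103 and 85.6 with IL-4, a rise of 2.20-fold (1.13 ± 0.08) and 2.05-fold (1.04 ± 0.09). Trib3 (chr2:152337425-152344060), a pseudokinase that ATF4 and CHOP induce, was at 6.98 and 6.01 FPKM untreated and 16.0 and 14.8 with IL-4 (1.19 ± 0.14 and 1.29 ± 0.15). In all 3 genes the groups with and without IL-4 were far apart. The knockout library lay slightly below the wild-type one at either treatment, but none of these genotype differences was called. Without and with IL-4 they were -0.05 ± 0.04 and -0.11 ± 0.03 (Atf4), -0.16 ± 0.10 and -0.26 ± 0.07 (Ddit3), and -0.21 ± 0.17 and -0.11 ± 0.11 (Trib3). With the length trend removed, Atf4 had -0.01 and -0.01, Ddit3 -0.12 and -0.09, and Trib3 -0.19 and -0.06.

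The amino acid and redox genes of the branch changed by similar or larger amounts. Asns (chr6:7675165-7693209), which makes asparagine, was at 12.7 and 8.43 FPKM untreated and 29.8 and 25.6 with IL-4, a rise of 2.33-fold (1.22 ± 0.10) in the wild-type pair and 3.02-fold (1.59 ± 0.12) in the knockout pair. Chac1 (chr2:119351242-119354326), which degrades glutathione, was at 2.47 and 1.32 FPKM untreated and 5.53 and 6.17 with IL-4. Its reads were few, 43 and 23 untreated and 98 and 107 with IL-4, and its log2 ratios of 1.13 ± 0.26 and 2.14 ± 0.33 were the least precise of the called genes. Sesn2 (chr4:132492804-132510456), a sestrin that restrains mTORC1, was at 5.63, 7.43 and 5.23 FPKM in the wild-type untreated, wild-type IL-4 and knockout untreated libraries and at 11.4 in the knockout with IL-4. It was called higher in the knockout pair alone (1.11 ± 0.14, against 0.39 ± 0.15 in the wild-type). Ppp1r15a, encoding GADD34, the phosphatase subunit that reverses eIF2α phosphorylation, was the exception in the branch at 23.5 to 28.2 FPKM in the 4 libraries (0.26 ± 0.08 and 0.11 ± 0.08).

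Set beside the promoters printed above, the 10 genes with an ER stress element counted 0 calls in either pair, which is near the background of 4.91% and 5.29% higher, and Derl3 among them was not tested in the knockout pair. Leaving out Derl3, their median was 0.06 in wild-type and 0.14 in knockout cells on the log2 scale, with ranges of -0.21 to 0.29 and -0.04 to 0.25. Of the 4 genes with a CARE, Asns, Trib3 and Chac1 were called higher in both pairs and Herpud1 in neither. A further 21 genes held none of the 5 motifs in the window searched. Of these, 4 were called higher in the wild-type pair and 5 in the knockout pair, where 1 (Edem2) was called lower. Pdia4, Xbp1, Atf4 and Ddit3 were higher in both pairs, and Sesn2 in the knockout pair alone.

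**Figure D3:**
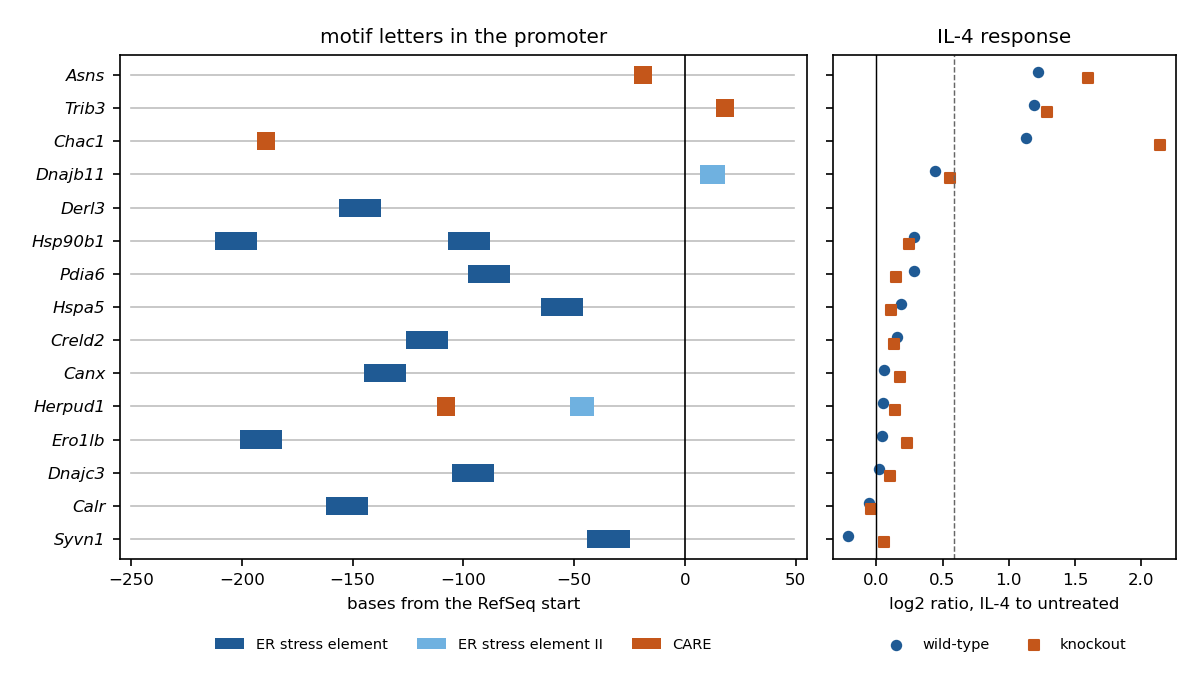
Left, position of the ER stress element (dark blue), the ER stress element II (light blue) and the CARE (orange) from 250 bases before to 50 after the RefSeq start (0) in the 15 genes of the set that hold one. Right, log2 ratio of IL-4 to untreated in wild-type (circles) and knockout (squares) cells, with a dashed line at 1.5-fold (Derl3, with at most 2 reads, has no point). Asns, Trib3 and Chac1 lie right of the line in both genotypes and the 9 plotted genes with an ER stress element lie left of it.

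A model with both genotypes in 1 fit gave the same picture with smaller changes added. The edgeR quasi-likelihood test on all 4 libraries, with 1 residual degree of freedom and no fold threshold, called 17 of 40 genes higher with IL-4 (12.0% of all 11791 genes) and 3 lower (13.3%). The 17 were the 8 genes called in the knockout pair together with Ern1, Hsp90b1, Ero1l, Dnajb11, Sdf2l1, Manf, Sel1l, Ssr1 and Ssr3, and the 3 lower were Atf6, Edem1 and Edem2. Hspa5 was not among them (log2 effect 0.16, adjusted p = 0.20 in edgeR). Of the 17, 8 had a fold above 1.5, and none of the 3 lower genes had. With DESeq2 11 were higher, beside 5.28% of all genes.

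The neighbouring pathways were described by 8 further lists of 136 genes. Of 30 other genes of the ATF4 and integrated stress response, 12 were called higher in the wild-type pair and 10 in the knockout pair and 0 lower, and the 10 were called in both. Over all genes the shares were 4.91% and 5.29% higher, and 7.88% and 4.03% lower. Among the 25 that averaged 1 FPKM or more, the median log2 ratio was 0.56 and 0.53. Of those averaging 5 FPKM or more and called in both pairs, the 3 with the largest mean ratio were Phgdh and Psat1, enzymes of serine synthesis, and the amino acid transporter Slc7a5. Phgdh was at 20.7 and 12.7 FPKM untreated and 72.1 and 58.3 with IL-4 (1.80 ± 0.08 and 2.19 ± 0.10), Slc7a5 at 3.71 and 3.36 and then 11.6 and 11.5 (1.61 ± 0.14 and 1.75 ± 0.14), and Psat1 at 11.1 and 8.93 and then 26.5 and 27.3 (1.25 ± 0.11 and 1.60 ± 0.11).

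Of 19 other ER folding enzymes and 17 other translocation and signal peptidase genes 0 were called in either pair, and with 4.91% and 5.29% of all genes higher and 7.88% and 4.03% lower, a count of 0 or 1 in these and the next lists is near the background. Their medians were 0.11 and 0.13 for the folding enzymes and 0.20 and 0.15 for the translocation genes. Of 8 oligosaccharyltransferase genes 0 were called in the wild-type pair and 1 (Stt3b, higher) in the knockout pair, and of 22 genes of ER to Golgi transport 0 and 1 (Kdelr3, below 1 FPKM in all libraries). Of 18 other degradation genes 1 was called lower in the wild-type (Sel1l3) and 1 higher in the knockout pair (Vimp). Of 10 other ER stress regulators 2 were called higher in the wild-type (Creb3l1 and Wfs1) and 1 in the knockout pair (Creb3l2). Of 12 cytosolic heat shock genes 2 were called higher in each pair, and the cochaperone Hsph1 was the one shared (18.0 and 19.6 FPKM untreated, 34.6 and 38.4 with IL-4). Stt3b, Kdelr3, Sel1l3, Vimp, Creb3l1 and Creb3l2 are named after their values were seen.

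**Figure D4:**
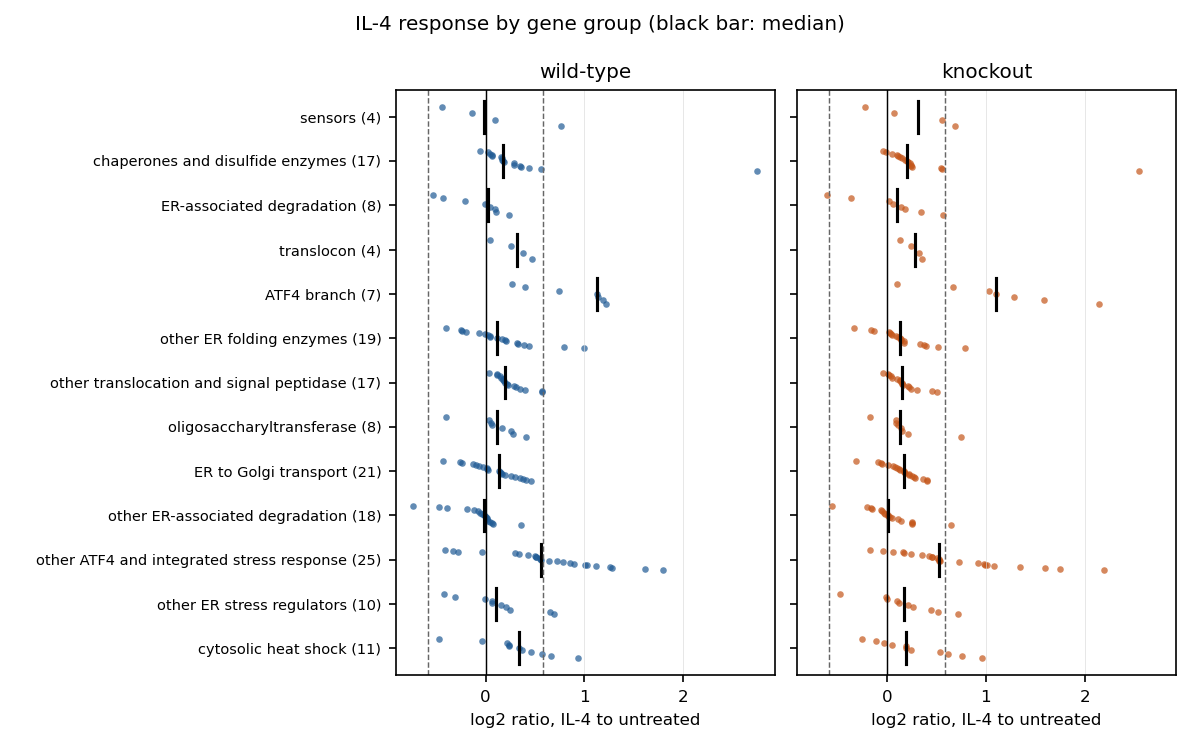
IL-4 to untreated log2 ratio of each gene averaging 1 FPKM or more in the 5 groups of the set and the 8 further lists, in wild-type (left) and knockout (right) cells, with the number of genes in brackets, medians as black bars and dashed lines at 1.5-fold. The ATF4 branch (medians 1.13 and 1.11) and the other ATF4 genes (0.56 and 0.53) lie furthest right, and the folding, translocation and transport lists have medians under 0.5.

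The second comparison asked what loss of Trim24 did to these genes at either treatment. It uses the same 4 libraries as the IL-4 comparison, so the 2 are not independent. Few genes of the set were called between the genotypes, and counts of 0 or 1 here are near the background over all genes given beside them. Without IL-4, 0 of 41 genes were called higher (0.839% of all 15623 genes) and 1, Asns, was called lower (0.742%). With IL-4, 1 of 41, Sesn2, was called higher (3.05% of all 15573 genes) and 0 lower (0.764%). No gene of the set was called in both pairs, where the background was 0.418% higher and 0.155% lower. Knockout over wild-type, the median was -0.03 without and 0.00 with IL-4 on the log2 scale. The additive edgeR fit called 0 of 40 genes higher (1.29% of all genes tested) and 0 lower (0.373%). At an unadjusted p under 0.05 it had 1 of 40 higher (Ern1, 0.31) and 1 lower (Asns, -0.37). Over all 11791 genes that threshold passed 1111 higher and 569 lower, so the set did not exceed the background. DESeq2 called 0 of the set, beside 0.509% of all genes higher and 0.0678% lower.

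**Figure D5:**
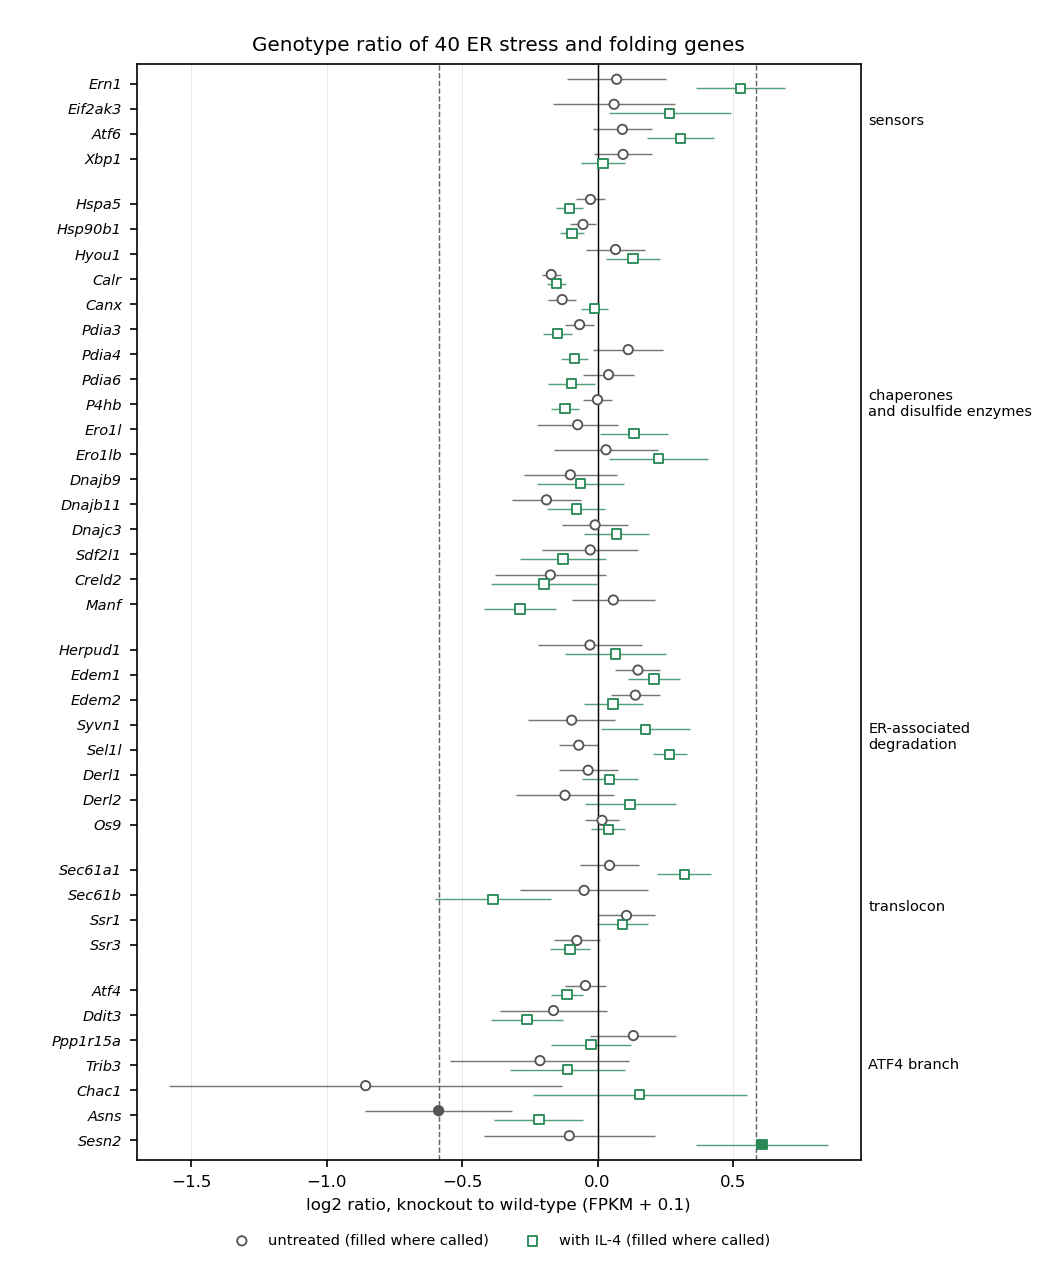
Knockout to wild-type log2 ratio of 40 genes without IL-4 (circles) and with IL-4 (squares), with 95% intervals for counting error, 1 library per group. Dashed lines mark 1.5-fold. Asns without IL-4 (-0.59) and Sesn2 with IL-4 (0.61) are the filled, called symbols, and Chac1 without IL-4 (-0.86) has the widest interval.

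Asns was at 12.7 FPKM in wild-type and 8.43 in knockout cells without IL-4, a log2 ratio of -0.59 ± 0.14 (adjusted p = 0.000729, Fisher's exact test) that just passed 1.5-fold. With IL-4 it was -0.22 ± 0.08. The call without IL-4 was lost with TMM scaling, with a pseudocount of 1 and with the length trend removed. Chac1 was lower in the untreated knockout by more (-0.86 ± 0.37) but rested on 23 against 43 reads and was not called (adjusted p = 0.17, Fisher's exact test). Of the other ATF4 genes, Phgdh was called lower in the untreated knockout (-0.70 ± 0.11). In the same pair 5 of 7 mesothelial and fibroblast markers were called lower in the knockout (0.742% of all genes), with a summed 19.5 against 38.4 FPKM, the mast cell marker Cma1 was called higher (1.91 ± 0.52, 3.13 against 0.76 FPKM), and their part in these differences was not tested.

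Sesn2 with IL-4 was at 11.4 FPKM in the knockout and 7.43 in the wild-type (0.61 ± 0.12, adjusted p = 1.07e-05, Fisher's exact test), a difference that passed 1.5-fold narrowly and was lost with a pseudocount of 1. In the same pair the mesothelial and fibroblast markers summed to 31.7 FPKM in the knockout and 31.5 in the wild-type. Among them Msln and Col1a1 were called higher and Wt1 and Dcn lower. The mast cell markers summed to 5.64 and 3.63 FPKM, with Cpa3 called higher, and the part of these markers in the difference was not tested. Ern1 with IL-4 stood just short of 1.5-fold (0.53 ± 0.08), at 0.44 with the length trend removed. Pdia4 had log2 ratios of 0.11 ± 0.07 without and -0.09 ± 0.03 with IL-4, and Xbp1 0.09 ± 0.05 and 0.02 ± 0.04. The chaperones as a group had medians of -0.03 and -0.09. Calr, lower in the knockout by 1.13-fold without and 1.11-fold with IL-4, had a small difference beyond counting error at both treatments (-0.17 ± 0.02 and -0.15 ± 0.02). It was -0.14 and -0.09 with the length trend removed. The additive fit did not call it (-0.16, adjusted p = 0.43 in edgeR). With the length trend removed some uncalled ratios with IL-4 turned, among them Ssr1 from 0.09 to -0.34, Atf6 from 0.31 to -0.04, Edem1 from 0.21 to -0.04 and Sel1l from 0.27 to -0.01.

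Of the 136 genes of the further lists, Wfs1 and Sel1l3 were called higher in both genotype pairs. Over all genes the shares were 0.418% higher and 0.155% lower. Both genes are named because they were called, so they are not read as a trait of the lists. Wfs1, encoding the ER membrane protein wolframin, was at 61.4 and 96.6 FPKM in wild-type and 186 and 254 in knockout libraries, without and with IL-4, with knockout to wild-type log2 ratios of 1.60 ± 0.03 and 1.39 ± 0.03. Sel1l3 was at 26.4 and 15.9 FPKM in wild-type and 41.2 and 27.9 in knockout cells (0.64 ± 0.05 and 0.81 ± 0.06). In both genes the knockout library was above the wild-type one at the same treatment, whereas Sel1l, the member with a similar name, had -0.07 and 0.27.

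The third comparison asked whether the IL-4 response itself differed between the genotypes, by a Wald test on the ratio of ratios against counting error, adjusted over 13381 genes and called past 1.5-fold. Sesn2 was called, with a response larger in the knockout by 0.72 ± 0.20 on the log2 scale (95% interval 0.32 to 1.12, adjusted p = 0.0065 by the Wald test over all genes). That made 1 of 40 higher, against 2.09% of all genes, and 0 lower, against 0.359%, which is near the background. The call was lost where the libraries were assumed to vary biologically with a coefficient of 0.2. In that setting 0 of all 13381 genes were called, so the loss is not particular to Sesn2. Chac1 had the largest difference (1.04 ± 0.42, interval 0.22 to 1.87), which was not called. A further 7 genes had an adjusted p under 0.05 with a difference under 1.5-fold, a count for which no share over all genes was computed. Ern1 (0.46 ± 0.13), Sel1l (0.34 ± 0.05), Sec61a1 (0.28 ± 0.07) and Canx (0.12 ± 0.04) responded more in the knockout, and Manf (-0.35 ± 0.10), Pdia4 (-0.20 ± 0.07) and P4hb (-0.12 ± 0.04) more in the wild-type. With the length trend removed only Sec61a1 (0.25), Manf (-0.33) and P4hb (-0.11) of these 7 had an adjusted p under 0.05, while Sel1l fell to 0.09, Canx had equal responses of 0.20 in both genotypes, and Ssr1 had a difference of -0.37 (adjusted p = 2.22e-05 by the Wald test). For the rest of the genes raised in both genotypes the intervals were -0.21 to 0.06 (Xbp1), -0.15 to 0.04 (Atf4), -0.34 to 0.13 (Ddit3), -0.29 to 0.49 (Trib3) and 0.05 to 0.69 (Asns), so that for Xbp1 and Atf4 differences beyond about 1.2-fold lay outside counting error.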

How the data were processed

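Total RNA from peritoneal macrophages was sequenced in 4 libraries, 1 per group. The authors mapped reads with Bowtie and quantified genes with RSEM on GRCm38/mm10, tools that the submitters' processing notes also name, with versions not given in the sources used here. The deposited expected counts divide reads shared by near-identical genes between them, and 22.2% to 22.8% of them were not whole. The deposited FPKM values scale these counts by transcript length and library total. Whether strand was used is not given in the sources used here. Unlisted genes were set to 0.

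Members and lists were chosen with earlier results of these data known. Of 16403 genes, 16365 matched a RefSeq symbol and position (GRCm38.p6). Expected counts were rounded, and the libraries were set against each other in pairs with Fisher's exact test (two-sided, SciPy 1.17.1, Benjamini-Hochberg adjustment), and calls needed an adjusted p below 0.05 with over 1.5-fold change, the thresholds in the study's methods. Log2 ratios used FPKM + 0.1. SEs follow from Poisson counting of both libraries (counts plus 0.5), and floors of 3 reads and 95% intervals cover counting error only. The additive model used edgeR 4.0.16 (R 4.3.3, TMM, filterByExpr, quasi-likelihood test), and the difference of responses a Wald test over genes with 10 or more reads. The length trend was fitted per library by lowess (fraction 0.3), as log2 distance from the average library against log2 transcript length, in genes of 200.0 bases or more averaging 1 FPKM. Tried instead were a pseudocount of 0.01 or 1, a minimum of 1 FPKM, and TMM, upper-quartile and DESeq2 scaling, a fold of 2, fold alone, an assumed coefficient of variation of 0.2, the length trend removed, DESeq2 1.42.0, every gene with a read, and 50.0 or more reads. Named were all members, Trim24, Arg1, Chil3 and, per further list and direction, at most 3 genes averaging 5 FPKM or more and called alike in both pairs. The tests were tested on simulated data, drawn with counting error alone, or with a small added variation for the additive model. Such data do not show how calls hold against variation between animals.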

Additional observations from a re-analysis of the deposited data

Results flagged for a closer look

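Some results met a fixed rule for a closer look, namely that wild-type and knockout cells differed in their response to IL-4 by the Wald test over all genes. Sesn2 had a difference of 0.72 on the log2 scale, knockout minus wild-type (adjusted p = 0.0065). Of the cytosolic heat shock genes Hspa1a had 1.13 (adjusted p = 0.027), and its reads are shared with the near-identical Hspa1b. Of the mesothelial and fibroblast markers Msln had 3.40 ± 1.21 SE (adjusted p = 0.047 by the Wald test), the least precise of these values. Col1a1 had 2.04 ± 0.12 (adjusted p = 6.17e-59) and Col3a1 0.93 ± 0.18 (adjusted p = 1.74e-05). With an assumed coefficient of variation of 0.2 per library, none of these was called, and neither was any other of all 13381 genes. What lies behind these differences was not tested.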

How the results depend on the processing

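No called gene of the set changed sign, and of 1938 values for single genes under the alternatives 1871 stayed on their side of the threshold, 53 lost a call and 14 gained one. Among the uncalled values 51 changed sign, 36 of them with the length trend removed (Ssr1, genotype with IL-4, from 0.09 to -0.34, and Atf6 from 0.31 to -0.04), and the other 15 were within 0.04 of 0. At an assumed coefficient of variation of 0.2, the wild-type IL-4 pair kept 1 of 7 higher calls (Pdia4), beside 1.14% of all genes. The knockout IL-4 pair kept 3 of 8 (Pdia4, Chac1 and Asns), beside 1.33%, and 0 genes of the set were lower in either pair. In that setting 0 were called in either genotype pair. For the difference of responses 0 of all 13381 genes were called. A fold of 2 left 0 genes lower with IL-4 in the knockout pair and 0 in either genotype pair. With a pseudocount of 1 both genotype pairs had 0 calls. Asns, lower without IL-4, was also lost with TMM scaling and with the length trend removed (0 calls), while fold alone gave 2 lower (Asns and Chac1). In the additive model the genes higher with IL-4 fell from 17 (12.0% of all genes) to 11 with DESeq2 (5.28%). They fell to 11 with every gene with a read (5.31%) and to 8 with a fold above 1.5 (6.12%), which left 0 lower. They rose to 18 with upper-quartile scaling (13.4%) and to 24 with the length trend removed (17.9%), so the share over all genes moved with the setting too. Atf6, 1 of the 3 lower genes, was lost with the length trend removed, with DESeq2 and with every gene with a read. Asns was called lower by genotype (1 gene) with upper-quartile scaling and with the length trend removed, beside 1.38% and 1.91% of all genes. Over all genes, removing the length trend moved the calls from 766 higher and 1228 lower to 809 and 817 for IL-4 in the wild-type, from 475 and 119 to 218 and 98 for genotype with IL-4, from 152 and 44 to 399 and 225 for the additive genotype effect, and from 280 and 48 to 72 and 28 for the difference of responses. Upper-quartile scaling gave 331 and 163 for the additive genotype effect. No replicate could be left out, because each group is 1 library, and the additive model, in which genotype blocks the IL-4 effect and treatment blocks the genotype effect, was the one fit over matched libraries. DESeq2 gave no adjusted p for 1601 genes in the genotype effect.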
